A study of Homo sapiens with 6 samples.

Results

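Fibrinogen, kininogen, the complement component C8 and alpha-2-macroglobulin are proteins that hepatocytes make and release into plasma. The 6 genes described here are FGA, FGB and FGG, which encode the 3 fibrinogen chains, and KNG1, C8A and A2M. They were chosen by name from the 1998 genes that the authors listed as changed, so that all 6 are listed is part of the choice. The authors' comparison is between cells transfected with an H19 siRNA (siH19, 3 libraries) and cells transfected with a control siRNA (siCon, 3 libraries). Both groups were HepG2, a human liver tumour line that keeps many hepatocyte functions, collected 48 h after transfection, and RNA freed of ribosomal RNA was sequenced in 6 libraries. The cells were a single line in culture, and separate cultures are not stated in the labels, so the authors' errors may measure technical spread alone. H19, the long noncoding RNA that the siRNA targets, was not analysed here, so the size of the knockdown was not checked.

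Fibrinogen circulates as a dimer in which each side holds 1 alpha, 1 beta and 1 gamma chain, and thrombin turns it into the fibrin of a clot. The chain genes lie side by side, are transcribed mainly in hepatocytes and are known to be raised together by interleukin-6 in the acute phase. KNG1 encodes the kininogens, from which kallikreins release bradykinin and which take part in contact activation of coagulation. C8A encodes the alpha subunit of C8, which inserts into target membranes as the complement attack complex forms. A2M encodes alpha-2-macroglobulin, which traps proteases of many classes in plasma.

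The promoters of the 3 fibrinogen genes and of KNG1 are shown because the fibrinogen genes are neighbours that moved in 1 direction and KNG1 had the largest change of the 6 genes. Each window runs from 250 bases before to 50 bases after the annotated start, is written 5′ to 3′ on the gene's own strand, and comes from RefSeq on GRCh38.p14, in which 5 of the 6 genes were matched, all but A2M. Capitals mark matches on either strand to GTTAAT (the core of an HNF1 site), CTGGGAA (an interleukin-6 response element), TTNNGCAA (a C/EBP site) or TGTTTAC (a forkhead site). The windows are chr4:154590693-154590992 on the minus strand for FGA, chr4:154562730-154563029 on the plus strand for FGB (the first of 2 listed starts), chr4:154612607-154612906 on the minus strand for FGG and chr3:186717109-186717408 on the plus strand for KNG1.
FGA: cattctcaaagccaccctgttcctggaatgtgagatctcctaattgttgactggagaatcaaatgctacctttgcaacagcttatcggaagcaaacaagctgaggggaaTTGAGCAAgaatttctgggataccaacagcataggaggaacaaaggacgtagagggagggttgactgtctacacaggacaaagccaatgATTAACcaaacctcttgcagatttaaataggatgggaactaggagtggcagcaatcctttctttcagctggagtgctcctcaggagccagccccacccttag
FGB: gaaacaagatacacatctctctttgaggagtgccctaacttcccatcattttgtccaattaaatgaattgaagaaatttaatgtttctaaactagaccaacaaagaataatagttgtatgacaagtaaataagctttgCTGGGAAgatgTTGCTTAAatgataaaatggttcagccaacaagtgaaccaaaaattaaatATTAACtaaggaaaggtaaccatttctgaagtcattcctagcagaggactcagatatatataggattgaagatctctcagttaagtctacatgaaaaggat
FGG: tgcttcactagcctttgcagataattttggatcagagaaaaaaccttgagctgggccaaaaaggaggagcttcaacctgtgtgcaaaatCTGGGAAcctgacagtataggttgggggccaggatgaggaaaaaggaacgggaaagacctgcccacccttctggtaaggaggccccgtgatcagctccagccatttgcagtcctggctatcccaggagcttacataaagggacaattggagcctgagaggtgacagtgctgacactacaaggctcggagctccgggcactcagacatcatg
KNG1: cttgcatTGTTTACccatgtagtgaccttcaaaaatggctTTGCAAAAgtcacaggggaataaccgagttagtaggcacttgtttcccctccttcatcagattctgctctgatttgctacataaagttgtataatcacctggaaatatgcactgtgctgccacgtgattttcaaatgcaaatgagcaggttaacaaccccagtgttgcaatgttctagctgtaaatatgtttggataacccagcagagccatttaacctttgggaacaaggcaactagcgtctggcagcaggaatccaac

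The HNF1 core was found in FGA at position -52 and in FGB at position -51, counted from the start, both on the strand opposite to the gene. The interleukin-6 element was found in FGB at -112 and in FGG at -161. C/EBP matches lay at -141 in FGA, at -101 in FGB and at -210 in KNG1, and the forkhead match lay at -243 in KNG1. No motif was present in all 3 fibrinogen windows, and the C8A window held none of them. Among 34796 promoter windows of the same length the HNF1 core was present in 6.91%, the interleukin-6 element in 10.8%, the C/EBP site in 10.5% and the forkhead site in 3.42%. TATAAA was also searched, was in none of the 5 windows and was present in 11.6% of all windows. These matches describe letters and not binding.

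All 3 fibrinogen chains were lower in siH19 cells, and the alpha chain fell most. In the authors' deposited table, FGA had a log2 normalized count of 12.45 in siH19 and 13.15 in siCon, which corresponds to 5595 and 9090 normalized counts. FGB, the beta chain, stood at 12.13 in siH19 and 12.49 in siCon in the authors' deposited table, or 4482 and 5753 normalized counts. For FGG, the gamma chain, the authors' deposited table gave 13.52 in siH19 and 13.98 in siCon, or 11747 and 16158 normalized counts. Each chain was thus lower in siH19 by the single group value, and as the libraries were combined into 1 value per group, overlap between libraries could not be looked at. As log2 fold changes, the authors' deposited table gave -0.69 ± 0.08 for FGA, -0.46 ± 0.08 for FGG and -0.36 ± 0.08 for FGB (authors' SE, 3 libraries per group). These are falls of 38.0%, 27.3% and 22.1%. The authors' adjusted p in their deposited table was 7.9e-05 for FGB and was written as 0, below the table's precision, for FGA and FGG.

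**Figure D1:**
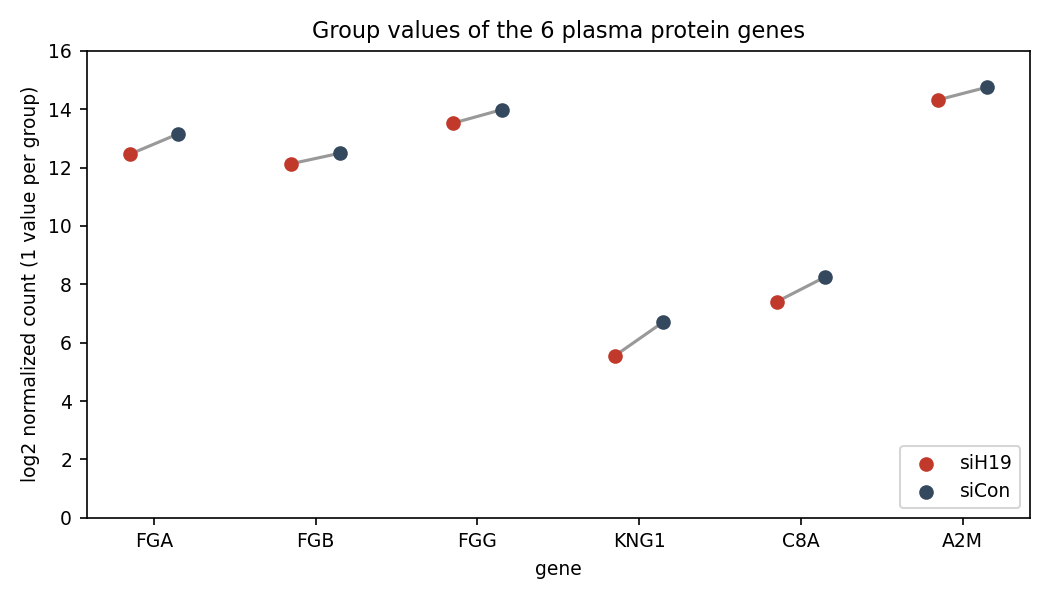
Log2 normalized count of each of the 6 genes on the vertical axis, with 1 combined value for siH19 (red, left) and 1 for siCon (dark, right) per gene, and no error bar because no value per library was used. Every gene sits lower in siH19, from KNG1 at 5.55 against 6.71 to A2M at 14.32 against 14.75.

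The listed falls of the chains differed in size, most clearly between FGA and FGB. The log2 fold change of FGA minus that of FGB was -0.33 ± 0.11 (SE combined from the authors' SEs as if independent), with a 95% interval of -0.55 to -0.11. This interval remained below 0 when widened for 3 pairs, at -0.60 to -0.06. Between FGA and FGG the difference was -0.23 ± 0.11, and its 95% interval of -0.45 to -0.01 reached -0.50 to 0.04 when widened for 3 pairs. The upper edge before widening, -0.008, is finer than the rounding of the listed fold changes and SEs. Whether that interval excludes 0 is therefore not settled. FGB and FGG differed by 0.10 ± 0.11 (95% interval -0.12 to 0.32), which is within the combined error but does not show that they fell alike. The chains were measured in the same libraries, so their errors may be shared and the combined SE is a guide and not a test.

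**Figure D2:**
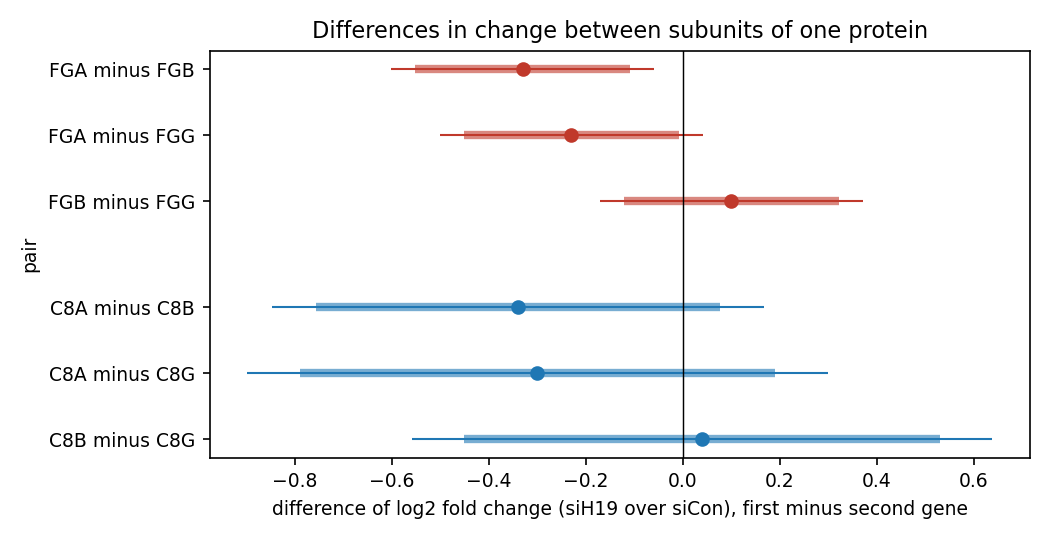
Difference between the log2 fold changes (siH19 over siCon) of paired subunits on the horizontal axis, for the fibrinogen chains (red) and the C8 subunits (blue), with thick bars for 95% intervals and thin bars for intervals widened for 3 pairs. FGA minus FGB, at -0.33, is the 1 pair of the 6 whose wide bar stays off 0.

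By the single group values, FGA made up a smaller part of the chain counts in siH19 than in siCon. There were 1.25 FGA counts per FGB count in siH19 and 1.58 in siCon, while FGB per FGG was 0.382 in siH19 and 0.356 in siCon. FGA made up 25.6% of the summed chain counts in siH19 and 29.3% in siCon, and the sum itself was 21824 in siH19 and 31001 in siCon. Levels of different chains can be compared only per transcript length. Per kilobase of the principal transcript in GENCODE release 29, FGG was the most abundant chain at 6674 normalized counts in siH19 and 9181 in siCon. FGB followed at 2269 per kilobase in siH19 and 2913 in siCon. FGA stood at 1521 per kilobase in siH19 and 2471 in siCon by its long transcript of 3678 bases. With its shorter coding transcript of 2248 bases FGA came to 2489 and 4043 per kilobase in siH19 and siCon, above FGB at the same length rule. FGG was first in both groups by either length, and the order of FGA and FGB depended on the FGA transcript. The table does not separate transcripts of a gene.

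KNG1 had the largest fall of the 6 genes and the lowest level per kilobase, at 21.5 normalized counts in siH19 and 48.1 in siCon. Its log2 normalized count in the authors' deposited table was 5.55 in siH19 and 6.71 in siCon, or 46.9 and 104.7 normalized counts. The log2 fold change in the authors' deposited table was -1.16 ± 0.20 (authors' SE, adjusted p written as 0), a 2.23-fold fall that left 44.8% of the siCon level. Counting error alone for 3 libraries per group at these levels would give an SE of 0.15, if a normalized count stands for about 1 read, against the authors' SE of 0.20. In GENCODE release 29 KNG1 overlaps an antisense transcript, AC068631.1. The kit keeps strand, but whether strand was used in counting was not stated, so reads of such pairs may be shared. Of the 10 symbols of the kinin system looked up, KNG1 and CPN2 were listed. CPN2 encodes the regulatory subunit of carboxypeptidase N, which trims kinins and complement peptides, and was lower at -0.63 ± 0.16 (adjusted p = 0.00181) in the authors' deposited table. The other 8, among them the kallikrein gene KLKB1 and F12, were not analysed here.

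C8A was lower together with the genes of both other C8 subunits. In the authors' deposited table C8A had log2 normalized counts of 7.40 in siH19 and 8.25 in siCon, or 168.9 and 304.4 normalized counts. C8B, which encodes the beta subunit, had 6.86 in siH19 and 7.37 in siCon in the authors' deposited table, or 116.2 and 165.4 normalized counts. C8G, which encodes the small gamma subunit, had 5.17 in siH19 and 5.72 in siCon in the authors' deposited table, or 36.0 and 52.7 normalized counts. All 3 subunit genes therefore had the lower group value in siH19, at low levels compared with the fibrinogen genes per kilobase. Beside this, 55.3% of all listed genes were lower. The share was 52.7% at mean counts of 100 to 1000, where C8A and C8B lay, and 51.1% under 100, where C8G lay. Per kilobase of principal transcript C8A stood at 71.7 in siH19 and 129.2 in siCon, C8B at 57.0 and 81.2, and C8G at 41.1 and 60.1. As log2 fold changes, the authors' deposited table gave -0.85 ± 0.15 for C8A (adjusted p = 1e-06), -0.51 ± 0.15 for C8B (adjusted p = 0.00919) and -0.55 ± 0.20 for C8G (adjusted p = 0.0461, close to the threshold of 0.05). By size of fall C8B ranked 216 of 556 lower genes with mean counts of 100 to 1000. C8G ranked 103 of 112 lower genes with mean counts under 100, among the smaller falls listed there. C8A minus C8B was -0.34 ± 0.21 with a 95% interval of -0.76 to 0.08, and C8A minus C8G was -0.30 ± 0.25 with an interval of -0.79 to 0.19. C8B minus C8G was 0.04 ± 0.25 with an interval of -0.45 to 0.53. A difference between C8 subunits as large as that between FGA and FGB lies inside each of these intervals, so at this precision neither a shared nor an unequal fall was shown. The genes of the other terminal components looked up, C5, C6, C7 and C9, were not analysed here.

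A2M had the highest normalized count of the 6 genes and fell modestly. Its log2 normalized count in the authors' deposited table was 14.32 in siH19 and 14.75 in siCon, or 20453 and 27554 normalized counts. Per kilobase of its principal transcript this was 4222 in siH19 and 5688 in siCon, between FGG and FGB in siH19 and likewise in siCon. The authors' deposited table gave a log2 fold change of -0.44 ± 0.08 (adjusted p written as 0), a fall of 26.3%. A2M overlaps the antisense transcript A2M-AS1 in GENCODE release 29, with the same doubt about strand as for KNG1. Of 10 symbols of its protein family and its clearance receptor, A2M was the 1 listed.

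Set against all listed genes, direction said less than size. The authors' deposited table gave 55.3% of the 1998 listed genes as lower in siH19, so a fall was the more common direction, and 6 of the 6 genes were lower. At 1.5-fold or more, 15.6% of the listed genes were lower, and FGA, KNG1 and C8A were the 3 of the 6 past it. With an adjusted p under 0.01, 36.6% of the listed genes were lower and all 6 of these genes passed. The table holds called genes only, so these shares are of listed genes and not of all genes measured. Ranked by size of fall among the 1105 lower genes, KNG1 was number 23, C8A 93, FGA 181, FGG 502, A2M 539 and FGB 755. The 3 genes with the larger falls thus stood in the upper part of the ranking, while FGG and A2M were near its middle and FGB below it.

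Falls were listed down to different sizes at different levels. Among listed genes with a mean normalized count under 100 the smallest listed fall was -0.47 on the log2 scale, whereas it was -0.19 for counts from 1000 to 10000. A change of the size of FGB's would therefore have no counterpart among listed genes at the level of KNG1. Within its own level range KNG1 ranked 3 of 112 lower genes by size of fall, and C8A ranked 50 of 556 (counts of 100 to 1000). FGA ranked 36 and FGB 196 of 405 (1000 to 10000), and FGG and A2M ranked 10 and 11 of 32 (10000 and above). In this highest range 78.0% of the listed genes were lower, so a fall there was the usual direction. KNG1, C8A and FGA therefore stood further from the middle of their level ranges than FGB, FGG or A2M did.

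**Figure D3:**
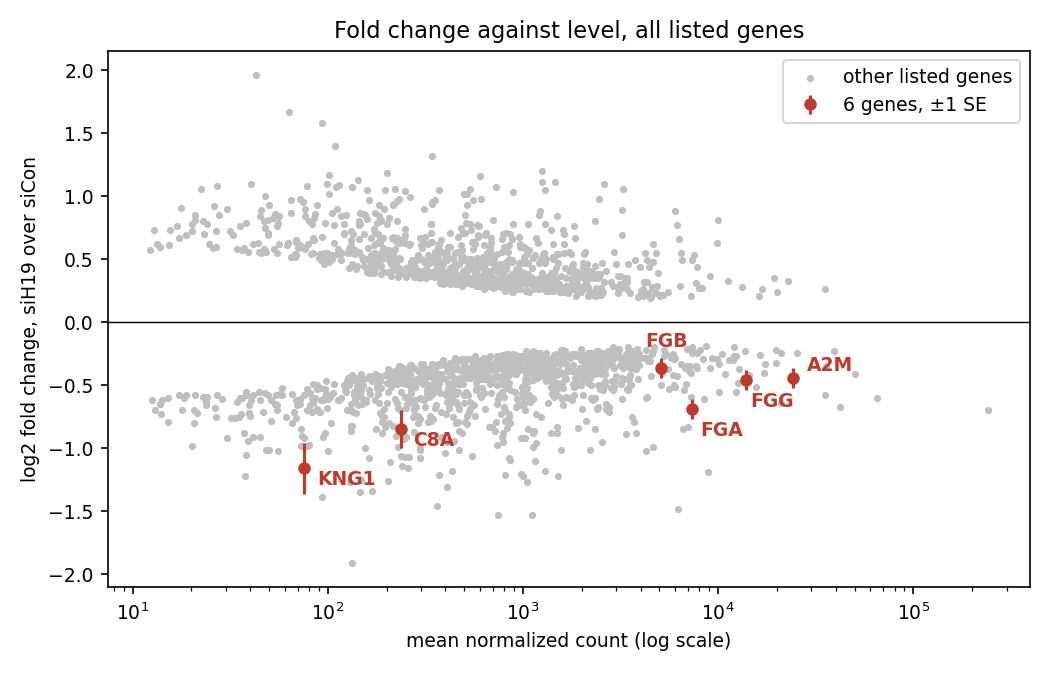
Log2 fold change (siH19 over siCon) against mean normalized count on a log axis for the 1998 listed genes in grey, with the 6 genes in red and bars of 1 authors' SE. The empty band around 0 is wider at low counts because only called genes are listed. KNG1 at -1.16 and C8A at -0.85 lie low on the left, while FGB at -0.36 equals the median fall at counts of 1000 to 10000.

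Listed genes of the systems in which these proteins act were all lower, apart from 1 gene of interleukin-6 signalling. In complement 9 of 34 symbols were listed and 9 were lower, beside 55.3% of all listed genes. The lists were chosen with earlier results of these data known. The complement median log2 fold change was -0.52, beside -0.27 over all listed genes and -0.44 over the 1105 lower ones. Most of these complement genes had low counts, where only larger falls were listed. The median of lower genes was -0.655 at mean counts under 100 and -0.46 at 100 to 1000. The complement median lies between these values. After C8A, the largest complement falls in the authors' deposited table were at MASP2 (-0.58 ± 0.20), a protease of the lectin pathway, and MBL2 (-0.57 ± 0.14), the mannose-binding lectin that starts it. The complement genes of highest count were CD59 (-0.52 ± 0.09 in the authors' deposited table), which blocks the attack complex on a cell's own membrane, and C2 (-0.38 ± 0.10), a protease of the classical pathway. Of 17 coagulation symbols 4 were listed and 4 were lower, with a median of -0.57. These were GGCX (-0.73 ± 0.09), which carboxylates vitamin K-dependent factors, F7 (-0.66 ± 0.16), F10 (-0.48 ± 0.12) and LMAN1 (-0.36 ± 0.11), a cargo receptor for secreted factors, in the authors' deposited table.

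Inhibitors of clotting and genes of fibrinolysis were lower as well, 6 of 6 listed out of 18 symbols, with a median of -0.56. In the level ranges of these genes, 52.7% (100 to 1000) and 59.4% (1000 to 10000) of listed genes were lower. The authors' deposited table gave -1.08 ± 0.12 for SERPINC1 (antithrombin), -0.74 ± 0.10 for SERPINA10, which inhibits factor X with protein Z, and -0.69 ± 0.10 for SERPIND1 (heparin cofactor). Smaller falls in the authors' deposited table were found for CPB2 (-0.43 ± 0.09), which slows fibrinolysis, SERPINF2 (-0.29 ± 0.08), the plasmin inhibitor, and PROS1 (-0.28 ± 0.10), the cofactor protein S. Genes that promote clotting and genes that restrain it were thus both among the lower ones. FGL1, which encodes a fibrinogen-like liver protein, was lower at -0.36 ± 0.11 (adjusted p = 0.013) in the authors' deposited table, the same value as FGB.

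Acute-phase genes, the class to which fibrinogen belongs, were also lower where listed. Of 20 symbols 10 were listed, 4 of them FGA, FGB, FGG and A2M, and all 10 were lower with a median of -0.50. A2M is a strong acute-phase protein in rat, whereas these cells are human. Without FGA, FGB, FGG and A2M there were 6 listed and 6 lower, with a median of -0.57. Of all listed genes 55.3% were lower. The share was 78.0% at mean counts of 10000 and above, where SERPINA1, A2M, FGG and CP lay. At 1000 to 10000, where the others apart from ITIH4 lay, it was 59.4%. The authors' deposited table gave -0.72 ± 0.22 for ITIH4, at a low mean count of 21.4, -0.70 ± 0.10 for HP (haptoglobin) and -0.60 ± 0.08 for SERPINA1 (alpha-1 antitrypsin). Falls were smaller for ITIH3 (-0.54 ± 0.12), CP (-0.30 ± 0.09) and ORM2 (-0.22 ± 0.07) in the authors' deposited table. Of 12 interleukin-6 signalling symbols 3 were listed, and they were divided. IL6R, the ligand-binding receptor chain, was lower at -0.59 ± 0.09 and CEBPD, a transcription factor raised in the acute phase, was lower at -0.72 ± 0.18 in the authors' deposited table. IL6ST, the shared signalling chain gp130, was higher at 0.88 ± 0.08 (adjusted p written as 0) in the authors' deposited table, with log2 normalized counts of 12.92 in siH19 and 12.04 in siCon. IL6ST was the 1 higher gene among the 46 listed genes of all 13 lists.

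Among 11 liver transcription factors looked up, 3 were listed and all 3 were lower, beside 55.3% of all listed genes. The authors' deposited table gave -1.31 ± 0.12 for NR1H4, -0.69 ± 0.11 for CEBPA and -0.47 ± 0.09 for HNF4A. NR1H4 is the bile acid receptor, for which human fibrinogen and kininogen genes are known targets. Whether the fall of NR1H4, CEBPA or HNF4A is linked to those of the 6 genes was not tested. Among the 46 genes of these lists, those nearest to each of the 6 in log2 fold change were SERPIND1 and CEBPA for FGA (both -0.69), LMAN1 and FGL1 for FGB (both -0.36) and HNF4A (-0.47) for FGG, followed at equal distance by A2M and MASP1 (both -0.44) and F10 (-0.48). SERPINC1 and CD68 (-1.21) were nearest to KNG1, ACTA2 (-0.83) and SERPINA10 to C8A, and MASP1 (-0.44) and CPB2 to A2M, all by the authors' deposited table. Over all 1105 lower genes, each gene itself included, 10 had FGA's value, 37 FGB's, 16 FGG's, 27 A2M's, 6 C8A's and 2 KNG1's. For the chains and A2M an equal or near value therefore does not set the named genes apart. The likeness rests on 1 comparison.

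**Figure D4:**
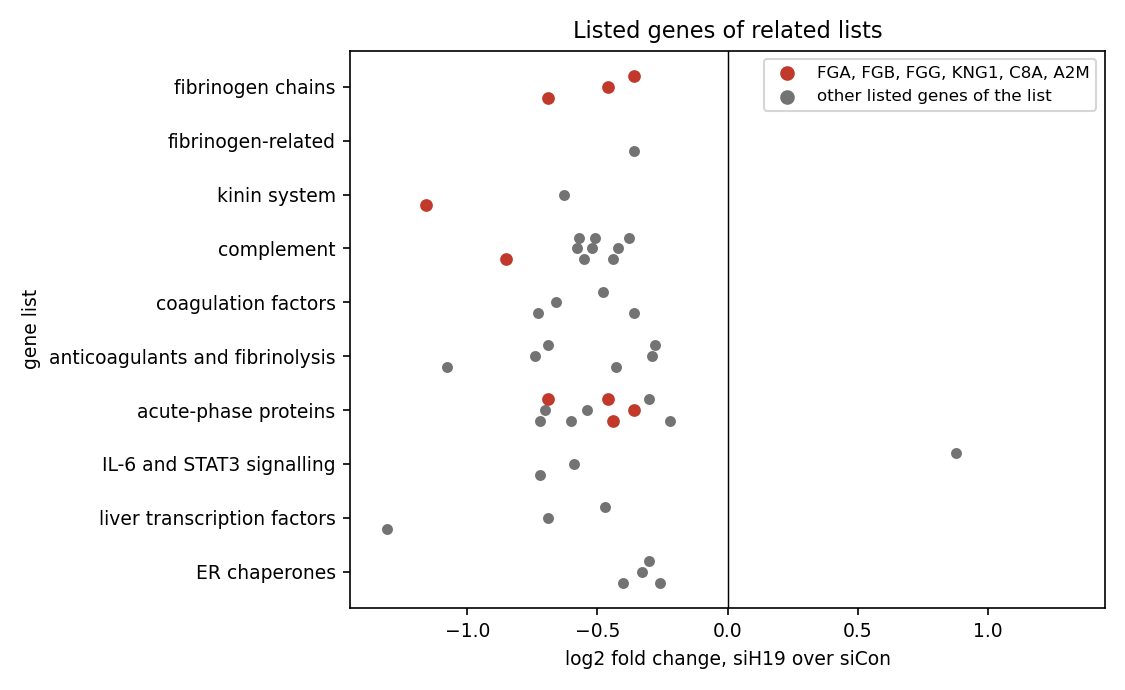
Log2 fold change (siH19 over siCon) on the horizontal axis for each listed gene of 10 gene lists, down the page, with the 6 genes in red and the other listed genes in grey; points are spread vertically within a list only for legibility. The genes lie left of 0 except IL6ST at 0.88.

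The neighbourhoods of the 6 genes differed. On chromosome 4 the fibrinogen genes were each other's only listed neighbours within 500 kb, with 6 protein-coding genes in each gene's window by GENCODE release 29. The FGA gene lies between the others, 12.04 kb from FGB and 13.4 kb from FGG, and had the largest fall of the 3. Near KNG1 on chromosome 3, 4 of 15 protein-coding genes were listed, and the 4 were lower, beside 55.3% of all listed genes. In the authors' deposited table these were AHSG (-0.51 ± 0.10), which encodes the plasma protein fetuin-A, the sialyltransferase ST6GAL1 (-0.43 ± 0.08), the kinase DGKG (-0.42 ± 0.15) and MASP1 (-0.44 ± 0.11), a protease of the lectin pathway of complement. C8B, 10.99 kb from C8A on chromosome 1, was the 1 listed gene near C8A. Near A2M on chromosome 12 the 1 listed gene, PHC1, a Polycomb component, was higher at 0.57 ± 0.18 (adjusted p = 0.0107) in the authors' deposited table.

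The 5 hepatocyte markers looked up were present and were lower in siH19 along with the 6 genes. Of all listed genes 55.3% were lower. At mean counts of 10000 and above, where these markers apart from TTR lay, 78.0% were lower. In the authors' deposited table the log2 fold changes were -0.88 ± 0.09 for TTR, -0.70 ± 0.09 for APOB, -0.67 ± 0.07 for ALB, -0.60 ± 0.08 for SERPINA1 and -0.35 ± 0.07 for AFP, a range that holds those of FGA, FGB, FGG, C8A and A2M but not that of KNG1. Log2 normalized counts of ALB were 15 in siH19 and 15.66 in siCon, and those of APOB were 17.48 and 18.19 in siH19 and siCon in the authors' deposited table. Of 14 markers of other cell types 4 were listed, ACTA2, LYVE1, CD68 and LYZ, and all 4 were lower. Their summed normalized count was 17296 in siH19 and 27449 in siCon, of which LYZ gave 16271 in siH19 and 25355 in siCon. The falls were 56.8% for CD68, 49.3% for LYVE1, 43.7% for ACTA2 and 35.8% for LYZ. All were read in cultures of the single line HepG2, and any link to the falls of the 6 genes was not tested. In bulk RNA a smaller share of expressing cells and less RNA per cell cannot be told apart. The depth of each library is unknown, as the table has no library totals.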

How the data were processed

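Per the labels' protocols, a stranded kit was used on rRNA-depleted total RNA, with paired-end sequencing of 76 cycles. The build hg19 and the programs DESeq2 1.0.0, Cufflinks 2.2.1 and STAR 2.5.0a are named, without their roles, per the submitters' processing notes. Per the file headers, the 1 deposited table gives for each gene a log2 count per group, a mean count, a log2 fold change with its SE and a q value. The log2 values were deposited by the authors with 1 value per group. The mean count is a signal that the authors had normalized, not a number of whole reads, as deposited. The q value deposited by the authors, an adjusted p-value, was under 0.05 in every row (largest 0.0498), so the table holds called genes only. Fold changes are siH19 over siCon and equalled the difference of the group values within 0.01.

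Normalized counts were computed as powers of the log2 values, and 95% intervals as 1.96 SE on each side, or 2.394 SE for 3 pairs. No test was added, because no value per library was used; the fit foreseen for counts per library was not made. Lengths, neighbours and overlaps came from GENCODE release 29 on GRCh38, and coordinates are printed for RefSeq promoters alone. The motif search and the interval were tested on simulated data. The simulated errors were independent with known SEs, so the interval check does not cover errors shared between chains or SEs estimated from few libraries. The members and the 13 lists (149 symbols, 46 listed) were chosen with earlier results of these data known. Named genes are the 6 members, all listed genes of lists with up to 6 of them, the 3 largest changes and 2 highest counts of longer lists, listed genes within 500 kb, and the 2 genes nearest in fold change. For acute-phase proteins the other listed genes are named too. The hepatocyte markers ALB, TTR, APOB and AFP, which are in none of the 13 lists, are also named. Calculations used Python 3.11.15 with pandas 2.3.3.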

Additional observations from a re-analysis of the deposited data

How the results depend on the processing

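All 6 genes passed at an adjusted p under 0.01; 4 of them were at or above the median level, and 3 were changed at least 1.5-fold. Taking each log2 fold change relative to the median of the listed genes (-0.27) left -0.42 for FGA, -0.09 ± 0.08 (SE) for FGB, with a 95% interval that includes 0, -0.19 for FGG, -0.89 for KNG1, -0.58 for C8A and -0.17 for A2M. That median is over called genes only, so it is not a normalization. Using the difference of the group values moved no fold change or chain difference by more than 0.01. At mean counts at or above the median, 2 of the 9 complement and 2 of the 4 coagulation genes remained, and without the 6 members 6 acute-phase genes remained, because fewer genes were counted. The coding length was used in place of the planned protein length, and with it FGA, FGB and FGG came to 2154, 3043 and 8960 counts per kilobase in siH19. With the shortest coding transcript, chosen after seeing the data, FGA came to 2489 and FGG to 7081 per kilobase in siH19. No paired analysis was possible because the columns hold 1 value per group, and for the same reason leaving out replicates and other normalizations were not run. At KNG1, C8A, C8B and C8G low counts limit precision, with authors' SEs of 0.15 for C8A and C8B and 0.20 for KNG1 and C8G.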

Other observations

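Endoplasmic reticulum chaperones that help secreted proteins fold, fibrinogen chains among them, were lower where listed. Of 9 symbols 4 were listed and 4 were lower, with a median log2 fold change of -0.32. Their mean counts lay at 10000 and above, where 78.0% of all listed genes were lower with a median fall of -0.36 among the lower ones, so neither value sets the chaperones apart. The authors' deposited table gave -0.40 ± 0.08 for CANX (calnexin), -0.33 ± 0.12 for HSP90B1, -0.30 ± 0.10 for HSPA5 and -0.26 ± 0.07 for PDIA6.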
